A study of Mus musculus with 12 samples.

Results

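The interferon-stimulated genes of mouse liver are described here, 33 genes known to be transcribed when cells answer interferon and picked by their symbols. All 33 were found among the 54532 genes of the table. Of these, 30 averaged 1 FPKM or more over the 12 mice and were tested (FPKM, fragments scaled by transcript length and by depth), and *Oas3*, *Mx1* and *Ifi44* lay below that level. The livers came from male C57BL/6J mice, 3 in each of 4 groups, which had their diets for 26 weeks starting at 5 weeks of age. The ND group ate a normal diet and the control group a high-fat diet. The HYA group ate the high-fat diet with 1% HYA (10-hydroxy-cis-12-octadecenoic acid), and the LA group the high-fat diet with 1% linoleic acid. Lactic acid bacteria of the gut turn linoleic acid into HYA by adding water across an unsaturated bond, which leaves a hydroxyl group there. Control against ND asks what the high-fat diet changed, HYA or LA against control what each supplement changed, and HYA against LA how related compounds at the same share of the diet differed.

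Interferons are secreted proteins that cells release on sensing nucleic acid of a virus, or their own nucleic acid in the wrong place. Their receptors carry JAK kinases, and STAT2 and IRF9 then act at the interferon-stimulated response element (ISRE) of target genes, while many targets of interferon gamma carry the gamma-activated sequence (GAS). Many of the target proteins block steps of viral growth, and hepatocytes and the resident macrophages of the liver (Kupffer cells) both answer interferon.

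The tissue label was checked first. Of 10 hepatocyte markers, 10 passed the filter on low values, led by *Alb*, serum albumin, at a mean of 23934 FPKM. Between 17169064 and 25220880 fragments a mouse lay behind the values. Differences are given on the log2(FPKM + 1) scale, which understates the change of genes near 1 FPKM, and the ratio of the mean FPKM of the groups is given beside it. A gene was called at a limma adjusted p under 0.05 over 11083 tested genes. In bulk RNA, fewer cells of a type and less RNA per cell cannot be told apart.

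The high-fat diet went with higher levels of a share of the interferon-stimulated genes. In control against ND, 9 of 30 members (30%) were called higher, against 16.2% of all tested genes, and 0 were called lower by limma, against 19.1%. They were *Trim25*, *Ifit2*, *Oasl2*, *Oas1a*, *Ifit3*, *Oas2*, *Usp18*, *Gbp3* and *Xaf1*, and for each of them every control mouse lay above every ND-fed mouse. These genes were picked by a test on the same values, so this separation adds no support to the calls. Of the 30, *Oasl2* (0.794), *Oas2* (0.754) and *Ifit3b* (0.941) averaged under 1 FPKM in the ND-fed mice and passed the filter through the other groups. The share called higher, here and in LA against ND, thus rests partly on the filter, which all tested genes also passed. Without the filter 7 of the 9 kept their calls in control against ND, *Oasl2* and *Oas2* among them. At an unadjusted p under 0.05, 13 members were higher and 2 lower, against 19.8% and 25.3% of all tested genes. Limma voom on the recovered fragments called 15 higher and 0 lower, against 28.9% of all tested genes higher. Without ND 2 or without control 1, 6 members were called higher, *Gbp3*, *Usp18* and *Xaf1* being lost. The median log2 difference was 0.24 over the 30 members and −0.04 over all tested genes (0.14 over the members without ND 2), and 23 members (76.7%) lay above 0, against 43.0% of all tested genes, with *Bst2*, *Irf1* and *Irf9* turning from below to above 0 under a rescaling to TPM, which makes the values of each mouse add to the same total. No called member had a difference beyond 1 on the log2(FPKM + 1) scale. Of all tested genes, 2.25% were called higher and 1.63% lower beyond it, so 0 of 30 members does not set them apart. By voom, which adds less to low values, *Oas1a* stood at 1.48, *Ifit2* at 1.32, *Oas2* at 1.30, *Oasl2* at 1.24, *Ifit3* at 1.04 and *Ifit3b* at 1.005, and under TPM *Oas1a* at 1.29, *Ifit2* at 1.14 and *Ifit3* at 1.02, with the median of all tested genes raised in both.

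How each library is scaled bears on these counts. The FPKM already carried a scaling by median ratios, with denominators of 0.917 to 1.10 times the fragments of each mouse, and TPM undoes it. Under TPM the median of all tested genes in control against ND moved by 0.21, 18 members were called higher against 34.2% of all tested genes, and 83.8% of all calls were higher in place of 45.9%. Relative to the median of all tested genes, the median member stood at 0.28 in the FPKM and at 0.31 under TPM.

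**Figure D1:**
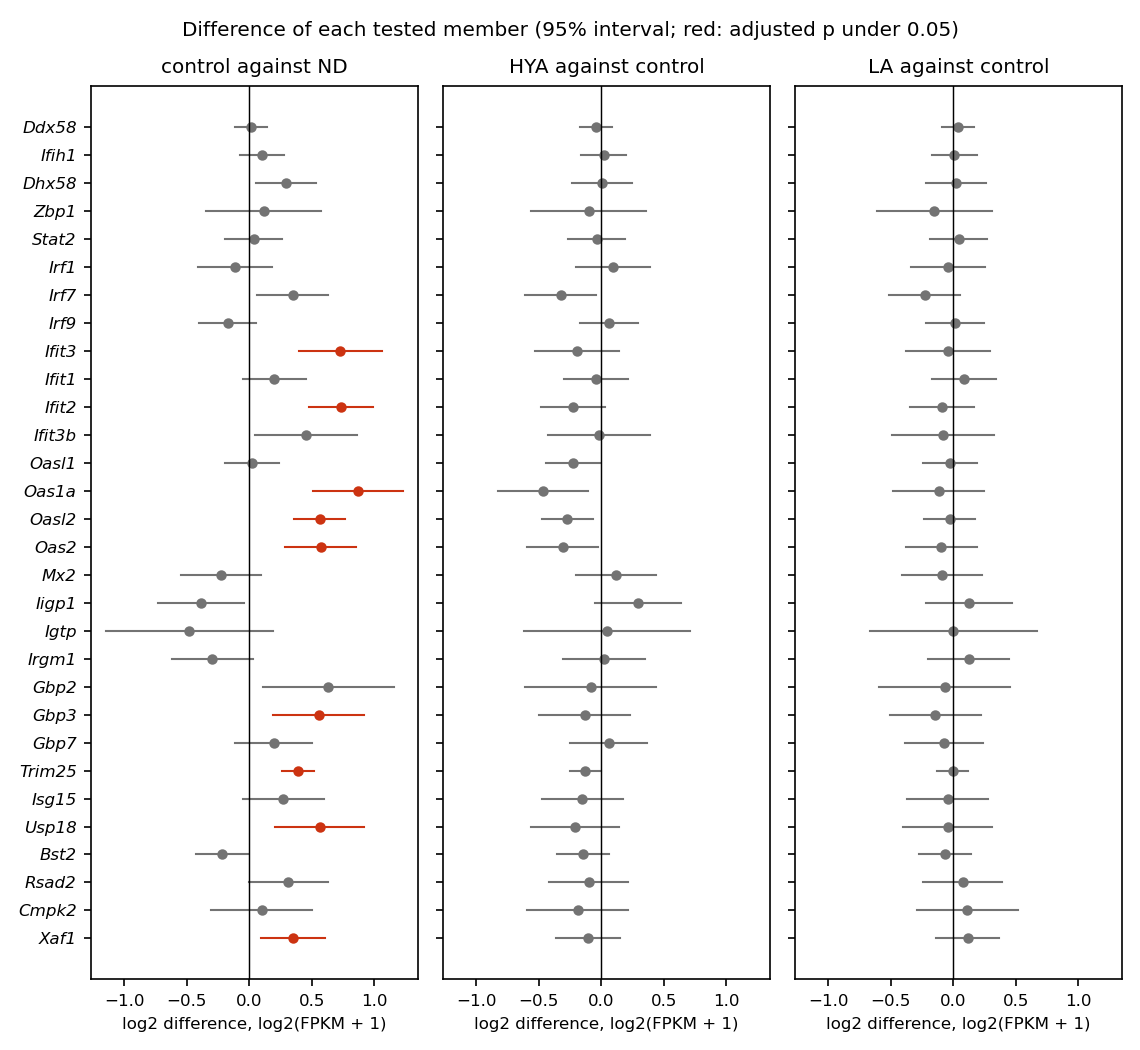
Log2 difference of each tested interferon-stimulated gene on the FPKM + 1 scale, as points with 95% intervals, in 3 comparisons (control against ND, and each supplemented group against control), grouped by role. The called members sit to the right of 0 in control against ND, by 0.35 to 0.87, and 0 members are called in the other comparisons; *Bst2*, *Irf1* and *Irf9* change sign under TPM in control against ND.

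Short sequences near the starts of the genes were searched for the ISRE and GAS letters. The members were picked as known interferon targets, so a share above that of all genes may follow from the choice of list. RefSeq promoters of build GRCm38.p6, from 250 bases before to 50 bases after the start, were matched for 26 of 33 members, and *Oas2*, *Mx1*, *Mx2*, *Usp18*, *Dhx58*, *Iigp1* and *Zbp1* were not matched. The letters of the ISRE, GAAA and again GAAA with 2 free bases between them on the strand of the gene, or TTTC in the same arrangement for the other strand, were present in 16 of 26 members (61.5%), against 3.99% of 27025 genes and 3.44% of 32851 promoters. The letters of the GAS, TTCNNNGAA, which read the same on both strands, were present in 6 of 26 members (23.1%), against 9.55% of the genes and 8.30% of the promoters. A GAS match can share letters with an ISRE match, as it does in the window of *Bst2*. Of 7 matched members called higher in control against ND, 3 (42.9%) held the ISRE letters, and of 17 other tested members 12 (70.6%) did. The windows of *Trim25*, *Oasl2*, *Xaf1* and *Ifit2* held no such ISRE letters, nor did those of *Irf7*, *Irf9*, *Irf1*, *Oasl1*, *Cmpk2* and *Ifi44*. A match is a description of letters and not of a bound site.

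**Figure D2:**
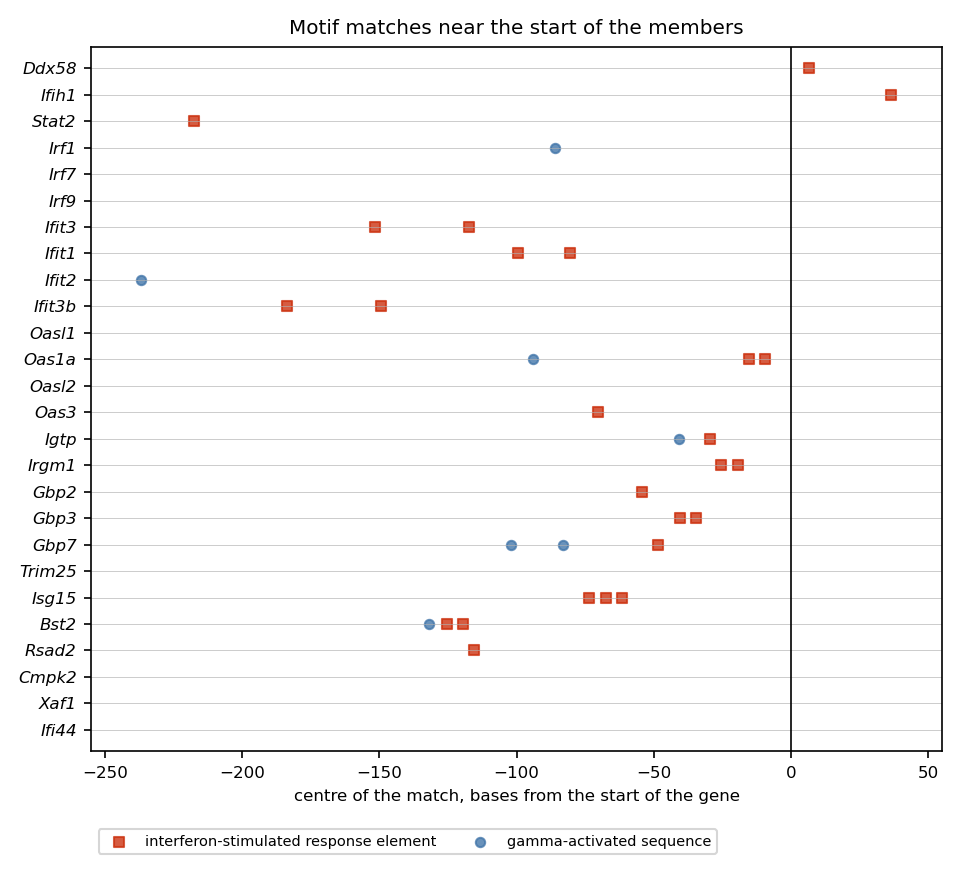
Position of each match of the ISRE and GAS letters, in bases from the start of the gene, in the promoter windows of the 26 matched members, with squares for ISRE and circles for GAS at the centre of each match. ISRE matches are present in 16 of 26 members and in 3 of 7 called ones.

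The 4 tested sensors did not pass the test in control against ND, where 16.2% of all tested genes were called higher and 19.1% lower. *Ddx58* encodes RIG-I and *Ifih1* encodes MDA5, which detect viral RNA and signal to interferon genes. The most abundant of them, *Ddx58* (ENSMUSG00000040296, chr4:40203773-40239828, − strand), measured 5.54, 5.47 and 5.34 FPKM in the ND-fed mice, 5.84, 5.36 and 5.33 in the control mice, 5.45, 5.01 and 5.49 in the HYA-treated mice and 6.02, 5.38 and 5.63 in the LA-treated mice. These values overlapped in every comparison, with a log2 difference in control against ND of 0.01 (SE 0.06, adjusted p = 0.875), which turned to −0.02 without control 1. Under TPM it was 0.24 and called (adjusted p = 0.0311). *Dhx58*, which encodes LGP2, a regulator of both sensors, shares 4.31% of its exon bases with an antisense gene, and its value is uncertain since the strand setting of the counting is not given in the sources used here. Its means were 3.80 ± 0.760 (SD, n = 3) FPKM in ND-fed and 4.85 ± 0.449 (SD, n = 3) in control mice, a log2 difference of 0.29 (SE 0.11, adjusted p = 0.0585) that was called without ND 3, under TPM, by voom and with a block for the replicate number. *Ifih1* and *Zbp1*, a sensor of Z-form nucleic acid, overlapped between the groups, at log2 differences of 0.10 and 0.12, and *Ifih1* was called under TPM and by voom.

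Of the 4 transcription factors 0 were called by limma in control against ND, against 16.2% of all tested genes called higher and 19.1% lower. *Stat2*, a part of the complex that binds the ISRE, was the most abundant (ENSMUSG00000040033, chr10:128270559-128292849, + strand), at 14.5, 13.1 and 11.8 FPKM in the ND-fed mice, 11.8, 13.4 and 15.3 in the control mice, 14.6, 12.4 and 12.3 in the HYA-treated mice and 13.7, 14.97 and 13.0 in the LA-treated mice. Its groups overlapped, with a log2 difference of 0.04 (SE 0.10, adjusted p = 0.816), which turned to −0.03 without ND 3 and to −0.05 without control 3. *Irf7*, which drives the genes of interferon alpha and is itself an interferon target (ENSMUSG00000025498, chr7:141262706-141266481, − strand), measured 9.21, 6.65 and 8.81 FPKM in the ND-fed mice, 11.7, 10.8 and 9.46 in the control mice, 9.78, 7.48 and 7.75 in the HYA-treated mice and 8.08, 9.04 and 9.72 in the LA-treated mice. Every control mouse lay above every ND-fed mouse, and the log2 difference of 0.35 (SE 0.13, adjusted p = 0.0580) missed the threshold. It was called under TPM and by voom, and without ND 1, without control 3 or without HYA 1. *Irf9* and *Irf1* overlapped between the groups, at log2 differences of −0.18 and −0.12 that turned above 0 under TPM, *Irf9* was called lower without control 3, and both share exon bases with another gene (2.28% and 3.40%). *Irf7* shares 1.19% of its exon bases with *Phrf1* on the opposite strand.

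The IFIT proteins bind viral RNA and hold back its translation. *Ifit2*, *Ifit3*, *Ifit3b* and *Ifit1* lie between 34550694 and 34650009 of chromosome 19, and 2 of the 4 were called higher in control against ND, against 16.2% of all tested genes. The promoter windows of *Ifit3*, *Ifit3b* and *Ifit1* are shown because they carry paired ISRE letters, in capitals, on the strand opposite to the gene. They are given 5′ to 3′ on the + strand, that of *Ifit3* from chr19:34583333-34583446, that of *Ifit3b* from chr19:34607729-34607842 and that of *Ifit1* from chr19:34640745-34640843, and the first pair is identical over 114 of 114 bases.
Ifit3: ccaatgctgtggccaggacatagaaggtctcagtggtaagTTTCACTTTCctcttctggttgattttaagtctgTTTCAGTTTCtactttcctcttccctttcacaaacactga
Ifit3b: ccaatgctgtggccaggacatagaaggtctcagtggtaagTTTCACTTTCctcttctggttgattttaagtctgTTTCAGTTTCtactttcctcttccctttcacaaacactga
Ifit1: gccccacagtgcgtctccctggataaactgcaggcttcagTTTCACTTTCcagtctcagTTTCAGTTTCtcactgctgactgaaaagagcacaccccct

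*Ifit2* (ENSMUSG00000045932, chr19:34550694-34576419, + strand) measured 1.55, 0.898 and 1.39 FPKM in the ND-fed mice, 3.10, 2.55 and 2.67 in the control mice, 2.56, 1.85 and 2.29 in the HYA-treated mice and 2.47, 2.50 and 2.65 in the LA-treated mice. Every mouse on the high-fat diet, with or without a supplement, lay above the highest ND-fed mouse. *Ifit2* rose in control against ND, with a ratio of means of 2.17 and a log2 difference of 0.74 (SE 0.12, adjusted p = 0.000713). For *Ifit3* (ENSMUSG00000074896, chr19:34583531-34588731, + strand), the most abundant of the family, the values were 4.96, 4.26 and 4.37 FPKM in the ND-fed mice, 9.22, 8.74 and 6.69 in the control mice, 8.45, 5.15 and 7.84 in the HYA-treated mice and 7.42, 7.95 and 8.30 in the LA-treated mice. Again each high-fat mouse lay above each ND-fed mouse, HYA 2 by the least, and *Ifit3* rose by a ratio of 1.82, a log2 difference of 0.73 (SE 0.15, adjusted p = 0.00390). *Ifit3* shares 41.1% of its 75-base exon windows with *Ifit3b*, and *Ifit3b* shares 35.7% of its own, so their levels are uncertain where reads could fall to either. *Ifit3b*, at 20 to 98 fragments a mouse, had a log2 difference of 0.45 (SE 0.19, adjusted p = 0.0805), and was called under TPM, by voom, with a block for the replicate number, with the 2 groups alone and without HYA 2. *Ifit1* shares 5.19% of its windows with *Ifit1bl2* and had a log2 difference of 0.20 (SE 0.12, adjusted p = 0.204), with every control mouse above every ND-fed mouse for both genes and a call for *Ifit1* under TPM.

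The OAS proteins make oligoadenylates that switch on RNase L, which cuts viral and cellular RNA, while *Oasl1* and *Oasl2* are relatives of these enzymes. The 5 members of the family lie on chromosome 5, and 3 of 4 tested ones were called higher in control against ND, against 16.2% of all tested genes. Of these, *Oasl2* and *Oas2* averaged 0.794 and 0.754 FPKM in the ND-fed mice and passed the filter through the other groups, so the count rests partly on the filter. The window before the start of *Oas1a* holds overlapping ISRE letters, in capitals, and is shown 5′ to 3′ on the − strand, that of the gene, from chr5:120907526-120907585.
Oas1a: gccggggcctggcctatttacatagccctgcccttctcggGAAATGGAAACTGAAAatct

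*Oas1a* (ENSMUSG00000052776, chr5:120896256-120907521, − strand) measured 1.24, 0.902 and 1.86 FPKM in the ND-fed mice, 3.18, 2.78 and 3.69 in the control mice, 2.71, 1.79 and 1.72 in the HYA-treated mice and 3.06, 2.41 and 3.19 in the LA-treated mice. Each control and LA mouse lay above each ND-fed mouse, HYA 1 lay between the ND-fed and the control mice, and HYA 2 and HYA 3 lay within the range of the ND-fed mice. *Oas1a* rose in control against ND by a ratio of means of 2.41, a log2 difference of 0.87 (SE 0.16, adjusted p = 0.00220). It shares 47.6% of its 75-base exon windows with *Oas1g*, so its level is uncertain where reads could fall to either, and it rests on 27 to 144 fragments a mouse. *Oasl2* (ENSMUSG00000029561, chr5:114896936-114912234, + strand) measured 0.804, 0.672 and 0.908 FPKM in the ND-fed mice, 1.61, 1.60 and 1.73 in the control mice, 1.45, 1.02 and 1.12 in the HYA-treated mice and 1.41, 1.55 and 1.83 in the LA-treated mice. The ND-fed mice were lowest, the HYA-treated mice all lay between them and the control mice, and the ratio of control to ND means was 2.07, with a log2 difference of 0.56 (SE 0.09, adjusted p = 0.000894). *Oas2* (ENSMUSG00000032690, chr5:120730333-120749853, − strand) measured 0.793, 0.495 and 0.975 FPKM in the ND-fed mice, 1.40, 1.71 and 1.67 in the control mice, 1.52, 0.830 and 0.982 in the HYA-treated mice and 1.42, 1.36 and 1.48 in the LA-treated mice. Control and ND-fed mice were apart, with a ratio of 2.11 and a log2 difference of 0.57 (SE 0.13, adjusted p = 0.00601), while HYA 2 lay within the ND-fed range and HYA 1 within that of the control mice.

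*Oasl1*, the most abundant of the family (ENSMUSG00000041827, chr5:114923240-114937915, + strand), showed another pattern. It measured 6.02, 6.32 and 5.95 FPKM in the ND-fed mice, 7.40, 5.58 and 5.79 in the control mice, 5.91, 4.72 and 4.92 in the HYA-treated mice and 6.10, 5.77 and 6.43 in the LA-treated mice. Control and ND-fed mice overlapped, at a log2 difference of 0.02 (SE 0.10, adjusted p = 0.875) that turned to −0.09 without control 1, and the HYA-treated mice were the lowest group, each below each ND-fed mouse. *Oas3* lay below the filter, with means of 0.456 FPKM in the control mice, 0.260 in ND-fed, 0.462 in LA-treated and 0.292 in HYA-treated mice. Without the filter its log2 difference in control against ND was 0.21 (adjusted p = 0.215).

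Mx proteins are dynamin-like GTPases that trap viral ribonucleoproteins, and the laboratory strain C57BL/6 is known to carry defective Mx genes. *Mx2* (ENSMUSG00000023341, chr16:97535308-97560900, + strand) is annotated as a polymorphic pseudogene and measured 1.65, 0.993 and 1.74 FPKM in the ND-fed mice, 0.965, 0.907 and 1.42 in the control mice, 1.57, 1.19 and 1.05 in the HYA-treated mice and 1.18, 0.843 and 0.869 in the LA-treated mice. The groups overlapped and the log2 difference in control against ND was −0.23 (SE 0.14, adjusted p = 0.252). *Mx1* averaged 0.578 FPKM in ND-fed and 0.754 in control mice and lay below the filter, with a log2 difference of 0.16 without it (adjusted p = 0.586).

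Many of the GBP and IRG GTPases, though not all, attack the vacuoles of intracellular microbes, and these families are known chiefly as targets of interferon gamma. In control against ND 1 of 6 was called higher, against 16.2% of all tested genes. With no test of the difference between them, *Gbp2*, *Gbp3* and *Gbp7* had differences above 0 while *Igtp*, *Iigp1* and *Irgm1* had differences below 0, also under TPM and by voom. The windows before the starts of *Gbp3*, *Igtp* and *Irgm1* are shown since members on either side of 0 carry the ISRE letters, in capitals, on their own strand for *Igtp* and *Irgm1* and on the other strand for *Gbp3*. They are given 5′ to 3′, for *Gbp3* from chr3:142559959-142560043 on the + strand, for *Igtp* from chr11:58199482-58199555 on the + strand and for *Irgm1* from chr11:48871421-48871490 on the − strand.
Gbp3: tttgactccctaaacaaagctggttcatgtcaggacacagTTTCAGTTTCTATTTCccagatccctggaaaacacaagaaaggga
Igtp: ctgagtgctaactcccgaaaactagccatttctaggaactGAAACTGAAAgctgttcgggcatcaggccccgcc
Irgm1: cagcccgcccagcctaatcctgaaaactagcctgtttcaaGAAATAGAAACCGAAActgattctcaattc

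*Gbp3* (ENSMUSG00000028268, chr3:142560026-142573209, + strand) measured 3.33, 2.04 and 2.51 FPKM in the ND-fed mice, 4.79, 3.97 and 4.11 in the control mice, 4.85, 2.97 and 3.78 in the HYA-treated mice and 3.02, 4.08 and 4.33 in the LA-treated mice. Each control mouse lay above each ND-fed mouse, and HYA 2 and LA 1 lay within the ND-fed range. The ratio of control to ND means was 1.63 and the log2 difference 0.56 (SE 0.17, adjusted p = 0.0231), a call lost without ND 2 (adjusted p = 0.0898), without ND 3 (0.0609), without control 1 (0.0840) and without the filter on low values (0.0533). *Iigp1* (ENSMUSG00000054072, chr18:60376029-60392627, + strand), by far the most abundant GTPase of the list, measured 104, 84.0 and 107 FPKM in the ND-fed mice, 70.8, 79.6 and 73.3 in the control mice, 113, 80.2 and 84.5 in the HYA-treated mice and 65.6, 87.9 and 93.0 in the LA-treated mice. Every control mouse lay below every ND-fed mouse and every HYA-treated mouse. The log2 difference in control against ND was −0.39 (SE 0.16, adjusted p = 0.0756), and it was called lower with the 2 groups alone (0.0372), without HYA 1 (0.0447) and without LA 1 (0.0454), but not under TPM (−0.16, adjusted p = 0.477). *Igtp*, named after its values were seen, measured 32.8, 17.6 and 20.5 FPKM in the ND-fed mice, 14.6, 17.0 and 16.8 in the control mice, 26.2, 12.2 and 14.3 in the HYA-treated mice and 11.0, 18.1 and 20.8 in the LA-treated mice. ND 1 and HYA 1 stood above all other mice, and with the log2 difference of −0.48 (SE 0.30, adjusted p = 0.244) the gene was not called. *Igtp* shares 7.80% of its windows with *Irgm2* and is uncertain where reads could fall to either.

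*Gbp2* averaged 3.31 ± 0.967 (SD, n = 3) FPKM in ND-fed and 5.62 ± 1.04 (SD, n = 3) FPKM in control mice, with no overlap, and its log2 difference was 0.63 (SE 0.24, adjusted p = 0.0606). It was called under TPM, by voom, with a block for the replicate number, with the 2 groups alone and without ND 1, HYA 1 or HYA 2. *Gbp7*, which overlaps the pseudogene *Gm43802* over 11.3% of its exon bases and is uncertain for that, had a log2 difference of 0.19 (SE 0.14, adjusted p = 0.315) with overlapping groups. *Irgm1*, at a log2 difference of −0.30 (SE 0.15, adjusted p = 0.144), overlapped as well and was called lower without HYA 1.

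**Figure D3:**
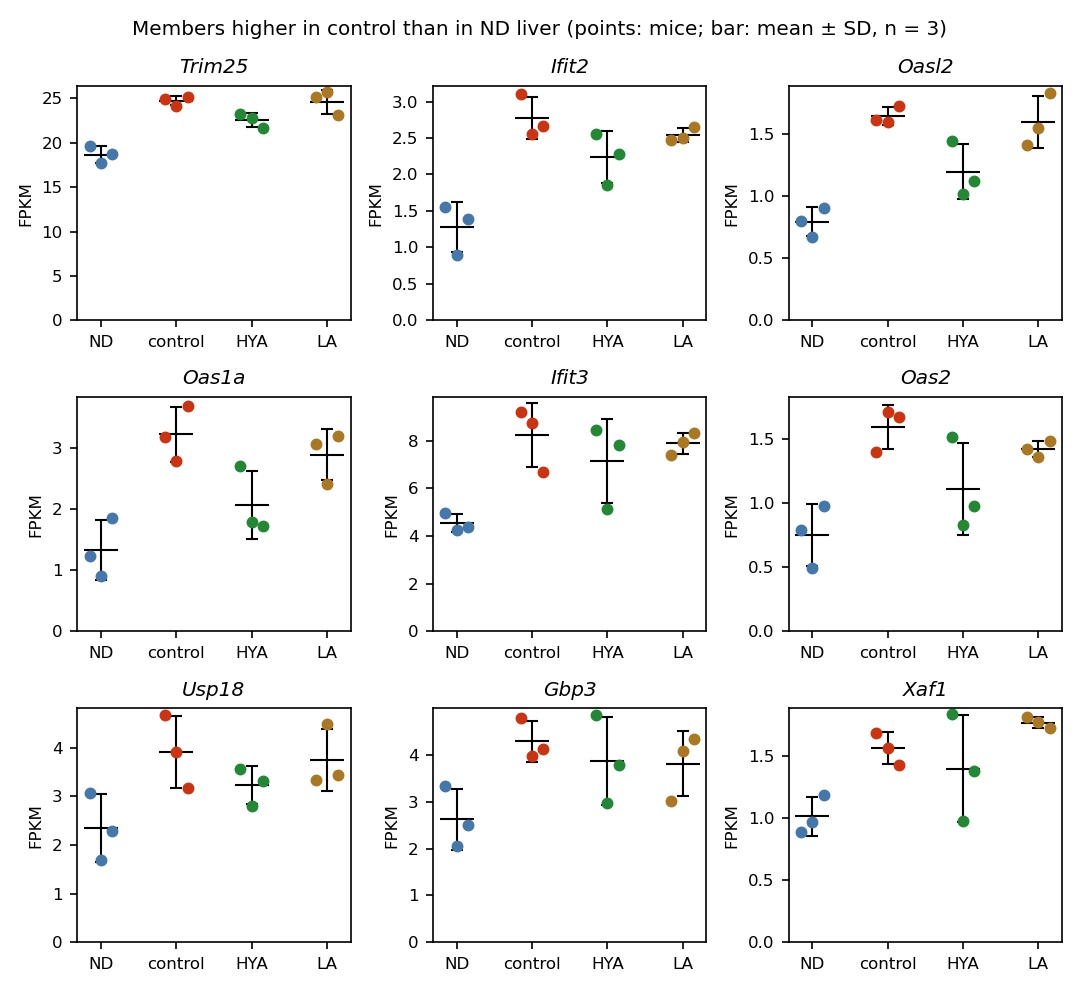
FPKM of the 9 interferon-stimulated genes called higher in control against ND, with a point for each mouse and bars at mean ± SD (n = 3) of each group, ND, control, HYA and LA. The control points lie above the ND points in every panel, and HYA 2 lies within the ND range for *Oas1a*, *Oas2*, *Usp18*, *Gbp3* and *Xaf1*. The genes were picked by a test on these values.

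ISG15 is a ubiquitin-like protein that is joined to other proteins during the response, USP18 removes it and dampens the interferon receptor, and TRIM25 is a ligase that activates RIG-I and can attach ISG15. The window before the start of *Isg15* holds a run of overlapping ISRE letters, in capitals, while that of *Trim25* holds none. It is given 5′ to 3′ on the − strand, that of the gene, from chr4:156200845-156200936.
Isg15: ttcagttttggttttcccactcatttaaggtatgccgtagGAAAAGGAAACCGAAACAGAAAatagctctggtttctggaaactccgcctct

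*Trim25* (ENSMUSG00000000275, chr11:88999376-89020293, + strand) measured 19.6, 17.7 and 18.7 FPKM in the ND-fed mice, 24.9, 24.1 and 25.1 in the control mice, 23.2, 22.8 and 21.6 in the HYA-treated mice and 25.1, 25.7 and 23.1 in the LA-treated mice. All 9 mice on the high-fat diet lay above the ND-fed mice, and the 3 HYA-treated mice lay between the ND-fed and the control mice. It had the lowest p of the members in control against ND, at a ratio of means of 1.32 and a log2 difference of 0.39 (SE 0.06, adjusted p = 0.000456), and rests on 1618 to 3150 fragments a mouse. *Usp18* (ENSMUSG00000030107, chr6:121245906-121270917, + strand) measured 3.08, 1.69 and 2.29 FPKM in the ND-fed mice, 4.67, 3.91 and 3.18 in the control mice, 3.57, 2.81 and 3.32 in the HYA-treated mice and 3.33, 4.49 and 3.44 in the LA-treated mice. The lowest control mouse lay just above the highest ND-fed mouse, and HYA 2 lay within the ND-fed range. The ratio of control to ND means was 1.66 and the log2 difference 0.56 (SE 0.16, adjusted p = 0.0194), a call lost without ND 2 (adjusted p = 0.0745), without control 1 (0.0803) and with the 2 groups alone (0.0543). *Usp18* overlaps the noncoding gene *Gm44148* on the opposite strand over 4.44% of its exon bases. *Isg15*, at means of 8.84 ± 1.32 (SD, n = 3) FPKM in ND-fed and 10.8 ± 0.680 (SD, n = 3) in control mice with no overlap, had a log2 difference of 0.27 (SE 0.15, adjusted p = 0.175) and was called under TPM.

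Of the other effectors, 1 of 4 tested was called higher in control against ND, against 16.2% of all tested genes. *Bst2*, which encodes tetherin, a membrane protein that holds budding virus on the cell, was the most abundant member of all (ENSMUSG00000046718, chr8:71534255-71537456, − strand). Its window, shown as that of the most abundant member, holds overlapping ISRE letters in capitals and is given 5′ to 3′ on the − strand, that of the gene, from chr8:71537557-71537642.
Bst2: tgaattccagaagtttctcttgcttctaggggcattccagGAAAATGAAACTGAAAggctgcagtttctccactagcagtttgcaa

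*Bst2* measured 161, 149 and 159.6 FPKM in the ND-fed mice, 128, 138 and 137 in the control mice, 129, 109 and 127 in the HYA-treated mice and 113, 147 and 126 in the LA-treated mice. The ND-fed mice were the highest group, each above each mouse of the other groups. In control against ND the log2 difference was −0.22 (SE 0.09, adjusted p = 0.0930), which was called without LA 2 (adjusted p = 0.0493) and turned to 0.02 under TPM (adjusted p = 0.911). *Xaf1*, which encodes a protein that promotes cell death (ENSMUSG00000040483, chr11:72301629-72313733, + strand), measured 0.886, 0.967 and 1.19 FPKM in the ND-fed mice, 1.69, 1.57 and 1.43 in the control mice, 1.84, 0.976 and 1.38 in the HYA-treated mice and 1.81, 1.77 and 1.72 in the LA-treated mice. Control mice lay above ND-fed mice, LA-treated mice above control mice, and HYA 2 within the ND-fed range. The ratio of control to ND means was 1.54 and the log2 difference 0.35 (SE 0.12, adjusted p = 0.0372). This call was lost without ND 1 (adjusted p = 0.107), ND 2 (0.0948), control 1 (0.114), control 2 (0.0769), LA 1 (0.05003) or LA 2 (0.0519), and without the filter (0.0803). *Rsad2*, which encodes the antiviral enzyme viperin, lay higher in every control mouse than in every ND-fed mouse, at a log2 difference of 0.31 (SE 0.14, adjusted p = 0.113), and was called under TPM and by voom. *Cmpk2*, a nucleotide kinase beside *Rsad2* on chromosome 12, overlapped at 0.10 (SE 0.18, adjusted p = 0.707). *Ifi44* averaged 0.404 FPKM in ND-fed and 0.855 in control mice, and without the filter its log2 difference of 0.40 was not called (adjusted p = 0.0623).

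With HYA no member passed the test, while many differences from control lay below 0. In HYA against control, 0 of 30 members were called higher, against 1.57% of all tested genes, and 0 lower, against 1.23%. At an unadjusted p under 0.05, 6 members were lower and 0 higher, against 7.89% of all tested genes lower and 10.6% higher, and voom called 1 lower, *Oasl2* (adjusted p = 0.0481), and 0 higher, where it called 418 of 11083 genes lower. The 6 were *Oasl2*, *Oas1a*, *Irf7*, *Oas2*, *Oasl1* and *Trim25*, so that 4 of 4 tested OAS genes were among them. *Oasl2* had a log2 difference of −0.27 (95% interval −0.48 to −0.07, adjusted p = 0.139). For *Oas1a* it was −0.47 (95% interval −0.83 to −0.11, adjusted p = 0.156). In both, every HYA-treated mouse lay below every control mouse, as for *Trim25* (−0.13, SE 0.06, adjusted p = 0.257). *Irf7* stood at −0.33 (95% interval −0.61 to −0.04, adjusted p = 0.204), with HYA 1 inside the range of the control mice. *Oas2* and *Oasl1* had differences of −0.31 (SE 0.13, adjusted p = 0.227) and −0.23 (SE 0.10, adjusted p = 0.241).

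The median log2 difference of the members in HYA against control was −0.10, against 0.02 over all tested genes, and 21 members lay below 0. Without HYA 1 the median was −0.24, and without HYA 2 it was 0.00. TPM moved the median of all tested genes by −0.11, so that 19.5% of all calls were higher in place of 56.1%, and turned *Dhx58*, *Gbp7*, *Ifih1*, *Igtp*, *Irf1*, *Irf9* and *Irgm1* from above to below 0. Relative to the median of all tested genes the median member stood at −0.12 in the FPKM and −0.15 under TPM. Above 0 under both scalings were *Mx2*, at a log2 difference of 0.12 (SE 0.14, adjusted p = 0.741) with overlapping groups, and *Iigp1*, at 0.30 (SE 0.16, adjusted p = 0.345) with each HYA-treated mouse above each control mouse.

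With LA no member passed the test. In LA against control, limma called 0 of 30 members higher and 0 lower, with 0% of all tested genes called higher and 0% lower. At an unadjusted p under 0.05, 0 members and 294 of all tested genes passed, and voom called 0. The median log2 difference was −0.04, against 0.00 over all tested genes. It turned to 0.02 without LA 1, and was −0.06 without LA 3 and −0.02 without control 1 or control 3. The members with the lowest p were *Irf7*, at −0.23 (95% interval −0.52 to 0.05, adjusted p = 0.999), *Xaf1*, at 0.11 (95% interval −0.14 to 0.37, adjusted p = 0.999), and *Gbp3*, at −0.15 (95% interval −0.51 to 0.22, adjusted p = 0.999). For *Xaf1* each LA-treated mouse lay above each control mouse, and for the others the groups overlapped. A p that misses the threshold does not show that the values did not differ.

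HYA, given at the same share of the diet as LA, carries a hydroxyl group that LA lacks, and no member was called between them. In HYA against LA, limma called 0 members higher, against 0.235% of all tested genes, and 0 lower, against 0.253%. At an unadjusted p under 0.05, 1 member was lower and 0 higher, against 7.01% and 10.2% of all tested genes, and voom called 0. The lowest p was that of *Oasl2*, with a log2 difference of −0.24 (95% interval −0.45 to −0.04, adjusted p = 0.203). *Oas1a* stood at −0.35 (95% interval −0.71 to 0.01, adjusted p = 0.306), and *Trim25* at −0.12 (95% interval −0.25 to 0.01, adjusted p = 0.307). The highest *Oasl2* value of a HYA-treated mouse, that of HYA 1, lay above the lowest of the LA-treated mice, while for *Oas1a* HYA 1 lay above LA 2 and for *Trim25* HYA 1 just above LA 3. The median was −0.09, against 0.01 over all tested genes, with 20 members below 0. Under TPM it was −0.21 and by voom −0.19, against −0.095 and −0.075 over all tested genes. In the FPKM it was −0.20 without HYA 1, −0.15 without LA 1, −0.06 without LA 2 and −0.01 without HYA 2. TPM moved the median of all tested genes by −0.11 and the share of higher calls from 48.1% to 18.8%, and changed the sign of *Gbp3*, *Ifih1*, *Ifit3b*, *Igtp*, *Irf9* and *Zbp1*.

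Against the normal diet, both supplemented groups can be set beside the control group, and these comparisons share the ND-fed mice. In LA against ND, 9 members were called higher, against 14.4% of all tested genes, and 1 lower, against 16.6%. The higher ones were *Trim25* (0.38, SE 0.06, adjusted p = 0.000613), *Oasl2* (0.53, SE 0.09, adjusted p = 0.00150), *Ifit2* (0.65, SE 0.12, adjusted p = 0.00188), *Oas1a* (0.75, SE 0.16, adjusted p = 0.00573), *Ifit3* (0.69, SE 0.15, adjusted p = 0.00618) and *Xaf1* (0.46, SE 0.12, adjusted p = 0.0117), whose calls held in 19 of 19 alternatives, and *Oas2* (0.47, SE 0.13, adjusted p = 0.0172), *Usp18* (0.52, SE 0.16, adjusted p = 0.0317) and *Dhx58* (0.32, SE 0.11, adjusted p = 0.0479). The call of *Oas2* was lost without ND 2 or LA 3, that of *Usp18* without ND 2, ND 3, LA 2 or LA 3, with the 2 groups alone and without the filter, and that of *Dhx58* without ND 1, ND 2, control 1, control 2 or any HYA-treated or LA-treated mouse, with the 2 groups alone and without the filter. *Bst2* was the lower member (−0.29, SE 0.09, adjusted p = 0.0392), a call lost in 10 of 19 alternatives, among them without any ND-fed mouse, LA 1 or LA 3, under TPM, by voom, without the filter and with the 2 groups alone.

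In HYA against ND, 3 members were called higher, against 8.72% of all tested genes, and 1 lower, against 7.85%. They were *Trim25* (0.26, SE 0.06, adjusted p = 0.0105), *Ifit2* (0.51, SE 0.12, adjusted p = 0.0128) and *Ifit3* (0.54, SE 0.15, adjusted p = 0.0350), with *Bst2* lower (−0.37, SE 0.09, adjusted p = 0.0234). Without HYA 1, 1 member was called higher, *Trim25*, and without HYA 2 there were 5, and *Bst2* was not called without HYA 2, ND 1 or ND 3, without the filter, under TPM or by voom. The call of *Ifit2* was lost without HYA 1 and with the 2 groups alone, and that of *Ifit3* without any ND-fed mouse, HYA 1, HYA 3 or LA 2, without the filter and with the 2 groups alone. *Oas1a*, called in LA against ND, had a difference of 0.40 (95% interval 0.04 to 0.76, adjusted p = 0.120) in HYA against ND. The medians were 0.22 in LA against ND and 0.14 in HYA against ND, against −0.04 and −0.02 over all tested genes. Without ND 2 they were 0.14 and 0.07, without LA 2 the first was 0.12, and without HYA 2 the second was 0.23. TPM moved the share of higher calls from 46.4% to 85.4% in LA against ND, where it shifted the median of all tested genes by 0.21 and 16 members were called higher against 32.6% of all tested genes. In HYA against ND it moved that share from 52.6% to 79.8%, with 5 members called higher against 14.6% of all tested genes.

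**Figure D4:**
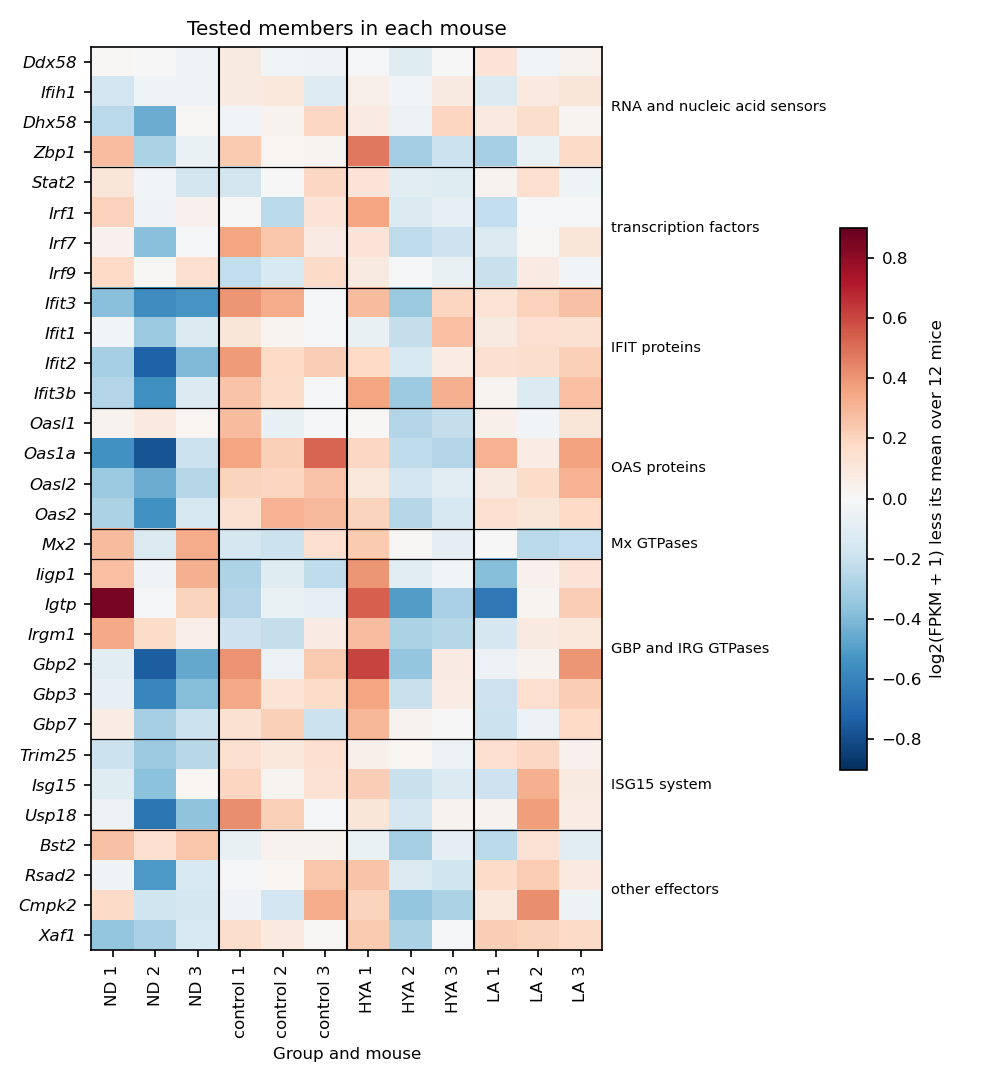
Log2(FPKM + 1) of each tested interferon-stimulated gene less its mean over the 12 mice, as colour, with a column for each mouse by group and a line for each gene by role. HYA 1 and HYA 2 differ over most genes, and the ND-fed mice are mostly low for the IFIT and OAS genes other than *Oasl1*; *Bst2*, *Irf1* and *Irf9* change sign in control against ND under TPM.

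Mice of the same group differed over the members. The level of the members in a mouse, the median over 30 members of log2(FPKM + 1) less the mean of the 12 mice, was −0.03, −0.31 and −0.12 in the ND-fed mice. It was 0.14, 0.03 and 0.09 in the control mice, 0.20, −0.20 and −0.07 in the HYA-treated mice and 0.03, 0.10 and 0.11 in the LA-treated mice. The SD within groups was 0.13. HYA 1 lay above every other mouse and HYA 2 below every mouse other than ND 2. HYA 1 was the highest of its group for 26 of 30 members, against 33.3% of all tested genes, and HYA 2 the lowest for 23, against 29.6%. ND 2 was the lowest of its group for 24 members, against 32.5% of all tested genes, and ND 1 the highest for 19, against 30.1%.

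Over the 6 GTPases the median deviation was 0.17, −0.17 and −0.07 in the ND-fed mice and −0.02, −0.06 and 0.00 in the control mice. It was 0.38, −0.24 and −0.01 in the HYA-treated mice and −0.19, 0.03 and 0.20 in the LA-treated mice. HYA 1 and LA 3 were each the highest of their group for 6 of 6, against 33.3% and 33.9% of all tested genes. LA 1 was the lowest of its group for 6, against 35.3%. The summed FPKM of 14 markers of T and NK cells, a known source of interferon gamma, was 5.66, 3.27 and 4.47 in the ND-fed mice, 6.68, 3.83 and 5.35 in the control mice, 5.21, 3.43 and 3.80 in the HYA-treated mice and 4.15, 5.37 and 7.36 in the LA-treated mice. Of the 14 markers 0 passed the filter, *Nkg7* was the most abundant at a mean of 0.922 FPKM, and their part in the member levels was not tested.

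**Figure D5:**
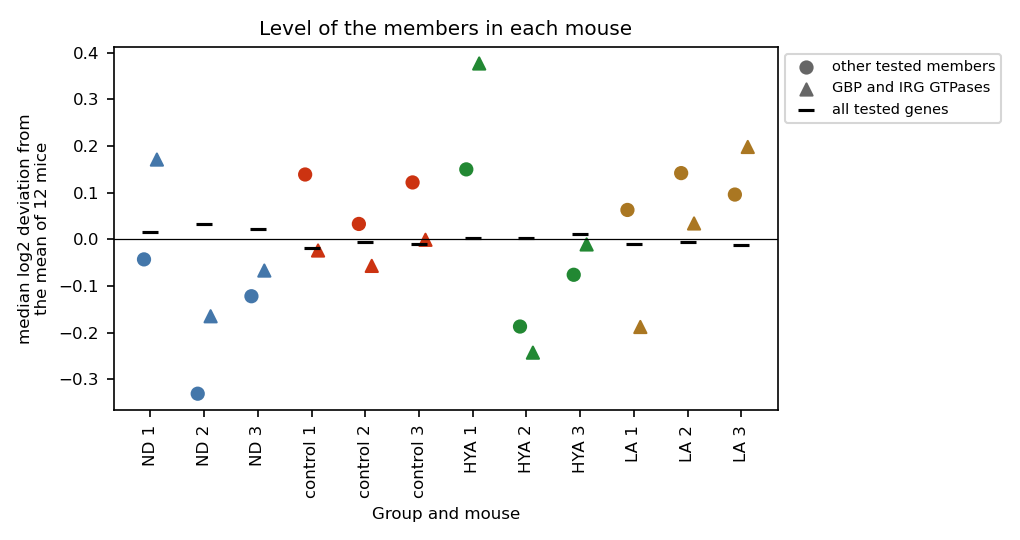
Level of the interferon-stimulated genes in each mouse, the median over members of log2(FPKM + 1) less the mean of the 12 mice, for each mouse by group, with triangles for the 6 GTPases, circles for the other tested members and bars for all tested genes. HYA 1 is the highest HYA mouse and HYA 2 the lowest in both, and ND 2 is the lowest mouse for the other members.

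The interferons themselves were at or near 0. Of 21 ligand genes 19 were at 0 in every mouse, among them *Ifnb1* and all listed interferon alpha genes. *Ifng* reached 3 fragments a mouse at most, at a mean of 0.0361 FPKM, and *Ifnk* reached 2. Transcripts made by few cells can lie below what this depth detects. *Trex1*, of the genes that restrain the response, was also at 0 in every mouse, and whether a 0 came from the counting was not tested.

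Of the receptor and JAK-STAT genes, 9 of 10 were tested and 2 were called higher in control against ND, with 0 lower, against 16.2% and 19.1% of all tested genes. At an unadjusted p under 0.05, 3 were higher and 0 lower, against 19.8% and 25.3%, and voom called 6 higher and 0 lower, against 28.9% higher. *Il10rb*, a chain of the interferon lambda receptor, was 1.79, 1.52 and 1.26 FPKM in the ND-fed mice and 2.50, 2.20 and 2.80 in the control mice, a log2 difference of 0.47 (SE 0.09, adjusted p = 0.00288). *Ifngr2*, a chain of the interferon gamma receptor, was 5.55, 3.93 and 5.48 and 9.26, 8.55 and 6.97, a difference of 0.63 (SE 0.13, adjusted p = 0.00410). Neither gene's groups overlapped. *Jak1* was the most abundant at 19.6 FPKM. Under TPM 7 of the 9 were called higher, against 34.2% of all tested genes, and *Ifnar2* changed sign. With HYA limma called 0 against control. There 1 was lower and 0 higher at an unadjusted p under 0.05, against 7.89% and 10.6% of all tested genes. *Il10rb* was called lower by voom, under TPM and without control 2.

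Of the genes that sense nucleic acid upstream of interferon, 15 of 17 were found and 10 tested, with 2 called higher and 2 lower in control against ND, against 16.2% and 19.1% of all tested genes. *Irf5*, which drives inflammatory genes behind toll-like receptors, fell: it was 7.11, 7.43 and 6.78 FPKM in the ND-fed mice and 3.55, 3.29 and 3.39 in the control mice, −0.88 (SE 0.10, adjusted p = 0.000126). *Irf3*, which switches on interferon beta, was lower at −0.32 (SE 0.08, adjusted p = 0.0103), a call lost under TPM and by voom. *Irf8*, a factor of myeloid cells, was higher at 0.48 (SE 0.13, adjusted p = 0.0141), a call lost without ND 2 or control 1, and *Ticam1*, an adaptor of toll-like receptors, at 0.54 (SE 0.15, adjusted p = 0.0157), a call lost with the 2 groups alone. *Mavs*, the adaptor of RIG-I, was the most abundant at 36.6 FPKM and was not called (0.00, SE 0.08, adjusted p = 0.996, with the sign changing under median-ratio scaling), while TPM and voom called it higher. Under TPM 5 were called higher and 1 lower, against 34.2% of all tested genes higher, and *Tbk1* and *Myd88* changed sign. Between HYA-treated and control mice limma called 0, as did voom. There 1 was higher and 1 lower at an unadjusted p under 0.05, against 10.6% and 7.89% of all tested genes.

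Of the genes that restrain the response, 10 of 13 were tested, and *Trex1* was at 0 in every mouse. In control against ND, 1 was called higher and 2 lower, against 16.2% and 19.1% of all tested genes. *Ube2l6*, which encodes the carrier enzyme for ISG15, rose from 28.5, 25.1 and 26.6 FPKM in the ND-fed mice to 36.2, 40.01 and 36.5 in the control mice, 0.48 (SE 0.09, adjusted p = 0.00272). *Rnaseh2c*, a subunit of the enzyme that removes RNA from DNA, was lower at −0.32 (SE 0.08, adjusted p = 0.00760), and *Irf2*, which competes for IRF sites, at −0.30 (SE 0.10, adjusted p = 0.0315). Under TPM and by voom 3 were called higher and 0 lower, against 34.2% and 28.9% of all tested genes higher, and *Rnaseh2a*, *Adar*, *Pias1* and *Socs3* changed sign. The call of *Irf2* was also lost without ND 2, ND 3, control 1 or control 3, without the filter and with the 2 groups alone, and 2 were called higher without ND 1 or without HYA 1. Limma called 0 in HYA against control, as did voom. There 1 was higher and 0 lower at an unadjusted p under 0.05, against 10.6% and 7.89% of all tested genes.

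Further interferon-stimulated genes, 73 by name of which 57 were tested, gave 25 called higher and 3 lower in control against ND, against 16.2% and 19.1% of all tested genes, with a median log2 difference of 0.22. That median was 0.46 under TPM and 0.48 by voom, against 0.17 and 0.14 over all tested genes. Under TPM 33 were called higher and 1 lower, against 34.2% of all tested genes higher, and *Lgals9*, *Ifitm2*, *Psmb10*, *Ifi35*, *Nmi*, *Apol9a*, *Pml* and *Tgtp2* changed sign. *Ifi27l2b*, a small protein of mitochondrial membranes, was 7.08, 5.36 and 4.73 FPKM in the ND-fed mice, 44.3, 36.3 and 38.1 in the control mice, 21.9, 19.7 and 18.03 in the HYA-treated mice and 52.5, 46.0 and 33.2 in the LA-treated mice. It rose in control against ND by a ratio of means of 6.91, a log2 difference of 2.60 (SE 0.17, adjusted p = 2.43e-06), and each HYA-treated mouse lay between the ND-fed and the control mice. Its difference in HYA against control was −0.96 (SE 0.17, adjusted p = 0.0255) and in HYA against LA −1.08 (SE 0.17, adjusted p = 0.0350), with no overlap in either. The first was lost without control 1, control 3, HYA 2 or HYA 3, without the filter (adjusted p = 0.0548) and with the 2 groups alone (0.111). The second was lost without ND 2, any HYA-treated mouse, LA 1 or LA 2 and without the filter (0.0855). *Samd9l*, which restrains viral translation and is given for HYA against LA after its values were seen, was 3.41, 3.48 and 3.71 in the ND-fed, 8.003, 7.47 and 6.63 in the control, 6.18, 5.75 and 5.81 in the HYA and 7.59, 8.24 and 8.36 in the LA-treated mice. Its log2 difference was 0.88 (SE 0.07, adjusted p = 7.67e-06) in control against ND and −0.39 (SE 0.07, adjusted p = 0.0380) in HYA against LA, the latter lost without any mouse of the ND, HYA or LA groups and without the filter.

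*Ifi207* and *Ifi203*, of the family of DNA-binding PYHIN proteins, were higher in control against ND by 0.92 (SE 0.11, adjusted p = 0.000170) and by 0.52 (SE 0.09, adjusted p = 0.00174). *Ifi27l2a* was higher by 1.61 (SE 0.24, adjusted p = 0.000456), and *Lgals3bp*, a secreted glycoprotein, by 0.57 (SE 0.09, adjusted p = 0.000661). For these genes, picked by a test on the same values, each control mouse lay above each ND-fed mouse. *Helz2*, a helicase and coactivator of nuclear receptors, was lower (−0.49, SE 0.08, adjusted p = 0.000874), and so were *Irgm2*, an IRG GTPase (−0.77, SE 0.23, adjusted p = 0.0247), and *Ifitm3*, which blocks viral entry (−0.26, SE 0.08, adjusted p = 0.0341). The calls of *Irgm2* and *Ifitm3* were lost under TPM and by voom, where 1 gene was called lower, without the filter, and without ND 1 or control 1. *Irgm2* also lost its call without control 2, and *Ifitm3* without ND 3 or control 3 and with the 2 groups alone. Of the 57, 43 lay below 0 in HYA against control, at a median of −0.12, where 55.6% of all tested genes lay above 0 at a median of 0.02, with *Ifitm3*, *Lgals9*, *Dtx3l*, *Helz2*, *Parp9*, *Ifi35*, *Cxcl9*, *Ifi47* and *Nmi* changing sign under TPM. The median of the 57 was −0.26 under TPM and −0.28 by voom, against −0.095 and −0.078 over all tested genes. In HYA against control 0 were called higher by limma, against 1.57% of all tested genes. *Ifi27l2b*, given above, was called lower there, as were 1.23% of all tested genes. At an unadjusted p under 0.05, 11 were lower and 1 higher, against 7.89% and 10.6% of all tested genes. TPM called 3 lower, where it called 400 of 11083 genes lower. Voom called 3 lower and 0 higher, where it called 418 of 11083 genes lower. In LA against control limma called 0, as did voom, and 0 passed at an unadjusted p under 0.05.

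Markers of liver cell types moved with the diet as well. In control against ND, 16.2% of all tested genes were called higher and 19.1% lower, and of the hepatocyte markers 0 were called higher and 8 lower, *Serpina3k*, *Cps1*, *Alb*, *Hnf4a*, *Ttr*, *Cyp2e1*, *Asgr1* and *Apob*. At an unadjusted p under 0.05, 0 were higher and 9 lower, against 19.8% and 25.3% of all tested genes. Voom called 0 higher and 6 lower, where it called 859 of 11083 genes lower. Their summed FPKM was 47564, 46883 and 48832 in the ND-fed mice, 29444, 34210.0 and 33492 in the control mice, 39448, 41024 and 40911 in the HYA-treated mice and 32748, 33482 and 33137 in the LA-treated mice. The ND-fed sums were the highest and the HYA sums lay between. Under TPM and by voom *Apob* and *Apoa1* changed sign and 6 were called lower, and *Apob* lost its call without any ND-fed mouse, control 1 or control 2 and with the 2 groups alone. Without the filter *Alb* (adjusted p = 0.4496), *Ttr* (0.0595) and *Apob* (0.0704) were not called. In HYA against control *Serpina3k* (0.95, SE 0.14, adjusted p = 0.0168) and *Cyp2e1* (0.79, SE 0.18, adjusted p = 0.0452) were higher and 0 lower, against 1.57% and 1.23% of all tested genes. There 8 were higher and 0 lower at an unadjusted p under 0.05, against 10.6% and 7.89%. *Serpina3k* and *Cyp2e1* lost their calls with the 2 groups alone. *Serpina3k* also lost it without HYA 2 or HYA 3, and *Cyp2e1* without the filter, any ND-fed or HYA mouse, control 1, control 3 or LA 2. Without control 2 there were 4 called higher. *Serpina3k* was also called higher in HYA against LA (0.85, SE 0.14, adjusted p = 0.0380), a call lost in 10 of 19 alternatives, without the filter and without any ND-fed, HYA-treated or LA-treated mouse. The part of any marker list in the member values was not tested.

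Of 10 Kupffer cell markers, all tested, 4 were called higher in control against ND (*C1qb*, *Cd5l*, *C1qc* and *C1qa*) and 2 lower (*Marco* and *Timd4*), against 16.2% and 19.1% of all tested genes, with *Clec4f*, the marker that defines these cells, changing sign under TPM. Without ND 2 or control 1, 1 was called higher, and without control 3 there were 2, while 1 was called lower without ND 1, control 1 or control 3. *Cd5l* also lost its call without ND 3 and with the 2 groups alone, and *C1qa* without LA 2, without the filter and with the 2 groups alone. Their summed FPKM was 379, 249 and 327 in the ND-fed, 381, 375 and 383 in the control, 376, 314 and 266 in the HYA and 381, 363 and 381 in the LA-treated mice, led by *Cd5l* at a mean of 79.3. With HYA limma and voom called 0 against control. There 4 were lower and 0 higher at an unadjusted p under 0.05, against 7.89% and 10.6% of all tested genes. For monocytes and recruited macrophages 4 of 10 markers were tested and 4 were called higher in control against ND, against the same 16.2%, *Gpnmb* (1.69, SE 0.17, adjusted p = 3.78e-05), *Itgax* (1.29, SE 0.13, adjusted p = 4.46e-05), *Cd14* (1.13, SE 0.22, adjusted p = 0.00246) and *Lyz2* (0.42, SE 0.14, adjusted p = 0.0396). The last call was lost without ND 2, ND 3, control 1, control 3 or any LA-treated mouse, without the filter and with the 2 groups alone. Their sums were 80.7, 60.02 and 76.9 in the ND-fed, 107, 91.3 and 126 in the control, 97.8, 74.8 and 73.6 in the HYA and 108, 97.8 and 101 in the LA-treated mice, led by *Lyz2* at 81.0. The filter takes the mean of all mice, so a marker low in the ND-fed mice could pass it through the high-fat groups. The share of 4 called among 4 tested may therefore rest partly on the filter. The calls of *Gpnmb*, *Itgax* and *Cd14* in control against ND held in 19 of 19 alternatives, among them no filter. In HYA against control *Gpnmb* (−0.88, SE 0.17, adjusted p = 0.0296) and *Itgax* (−0.67, SE 0.13, adjusted p = 0.0304) were lower, both calls being lost without control 1, control 3 or HYA 2, that of *Gpnmb* also without HYA 1 and that of *Itgax* without HYA 3. Both were lost without the filter (adjusted p = 0.0659 for each) and with the 2 groups alone (0.151 and 0.139), and *Itgax* with a pseudocount of 0.1 (0.0736).

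Stellate cell markers, 8 of 8 tested, gave 5 called higher in control against ND (*Dcn*, *Rgs5*, *Acta2*, *Pdgfrb* and *Hgf*), against 16.2% of all tested genes, with sums of 45.8, 39.4 and 51.3 in the ND-fed, 85.4, 71.1 and 81.6 in the control, 73.0, 63.1 and 66.7 in the HYA and 91.7, 78.1 and 80.2 in the LA-treated mice, led by *Dcn* at 32.4. Sinusoidal endothelium, 8 of 8 tested, gave 3 called higher (*Lyve1*, *Stab1* and *Pecam1*) against the same share, or 7 under TPM against 34.2%, where *Kdr* changed sign, with sums of 71.7, 59.2 and 71.8 in the ND-fed, 83.9, 83.2 and 82.5 in the control, 84.2, 82.2 and 77.0 in the HYA and 80.3, 80.3 and 83.8 in the LA-treated mice, led by *Clec4g* at 24.2. Limma and voom called 0 of both lists in HYA against control. There 4 stellate markers were lower at an unadjusted p under 0.05, against 7.89% of all tested genes. B and plasma cell markers had 2 of 8 tested, and *Ighm* was higher (1.02, SE 0.30, adjusted p = 0.0215), a call lost without control 2 or control 3, without the filter and with the 2 groups alone, while *Igkc* lay below 0 and was not called (−0.31, SE 0.41, adjusted p = 0.583). Their sums were 22.9, 28.4 and 30.6 FPKM with ND, 30.01, 32.1 and 45.1 in the control mice, 51.6, 51.1 and 29.3 with HYA and 39.0, 30.6 and 43.0 with LA. Plasmacytoid dendritic cells, a known source of interferon alpha, had 0 of 7 markers above the filter, led by *Spib* at 0.238, and a sum of at most 1.11 FPKM in any mouse. Conventional dendritic cell markers had 1 of 7 tested, *Zbtb46*, called by voom and not by limma (0.06, SE 0.07, adjusted p = 0.532), with sums of 2.85, 2.76 and 2.99 FPKM in the ND-fed and 4.09, 3.93 and 4.38 in the control mice. Neutrophil markers had 2 of 7 tested, with 0 called by limma or at an unadjusted p under 0.05, 1 under TPM and by voom and 1 without ND 1 or control 2. *S100a9* led them at 2.12 FPKM, *Ly6g* was at 0 in every mouse but LA 3, and their sums were 3.42, 3.14 and 2.32 in the ND-fed and 7.08, 4.50 and 8.94 in the control mice.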

How the data were processed

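Liver RNA of 12 mice, each mouse named by its own label, was sequenced by the authors as paired reads, and they deposited FPKM for 54532 genes. Per the submitters' processing notes fastp, HISAT2 2.0.5 and featureCounts 1.5.0-p3 were used with GRCm38, and the strand setting is not given in the sources used here. The values of members that overlap a gene on the opposite strand are uncertain for that. They are *Dhx58*, *Irf1*, *Irf7*, *Oasl1* (1.46% of its exon bases), *Gbp2* (0.954%) and *Usp18*. The study's methods name TPM, but the columns summed to 342146 to 429286, so the values were treated as FPKM. Fragments per gene were recovered from FPKM and gene length (100% of values within 0.1 of a whole number), 17169064 to 25220880 a mouse.

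Genes with a mean FPKM of 1 or more were tested (11083), by limma 3.58.1 in R 4.3.3 on log2(FPKM + 1), with trend, two-sided, all 12 mice in 1 model, Benjamini-Hochberg over all tested genes. The scripts were tested on simulated data. Tables were made in Python 3.11.15 with pandas 2.3.3 and scipy 1.17.1. Value columns of no listed sample numbered 0. Values in every mouse are given for members called in control against ND, HYA or LA against control or HYA against LA, the most abundant member of each role, and the 3 lowest p where none was called; of the other lists, genes called in control against ND or HYA against control are named (of further targets called higher, the 6 of lowest p). The members and lists (interferon ligands, receptors and JAK-STAT, sensing, restraint, further targets, cell type markers) were chosen with earlier results of these data known. Promoters were matched for 26 of 33 members in RefSeq, GRCm38.p6. Alternatives were a pseudocount of 0.1, no filter, a log2 difference beyond 1, TPM, median-ratio scaling, voom on recovered fragments, a replicate block, the 2 groups alone and leaving out each mouse. The calls of single genes were followed over 19 of these, which leave out the log2 difference beyond 1. The values of 1 gene of the further lists are not reported here.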

Additional observations from a re-analysis of the deposited data

How the results depend on the processing

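In control against ND, members called higher numbered 0 with a log2 difference beyond 1, 18 under TPM and 15 by voom, and 6 to 11 on leaving out a mouse. Members called lower numbered 1 with the 2 groups alone and 0 to 2 on leaving out a mouse. The median difference was 0.48 under TPM, 0.46 by voom and 0.14 to 0.29 on leaving out a mouse. In HYA against control, 1 member was called lower by voom, and leaving out a mouse gave 0 to 0 in either direction. The median was −0.24 under TPM, −0.24 by voom and −0.24 to 0.001 on leaving out a mouse. In LA against control and in HYA against LA, leaving out a mouse gave 0 to 0 calls, with medians of −0.06 to 0.02 and of −0.20 to −0.01.

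In HYA against ND, members called higher numbered 0 beyond a log2 difference of 1 and 1 with the 2 groups alone. They numbered 5 under TPM, against 14.6% of all tested genes, 5 by voom, against 12.8%, and 1 to 5 on leaving out a mouse. Those called lower numbered 0 beyond 1, without the filter, under TPM and by voom, and 0 to 2 on leaving out a mouse. The median was 0.26 under TPM, 0.28 by voom and 0.07 to 0.23 on leaving out a mouse. In LA against ND, members called higher numbered 0 beyond 1 and 6 to 10 on leaving out a mouse. They numbered 16 under TPM, against 32.6% of all tested genes, and 15 by voom, against 26.5%. Those called lower numbered 0 beyond 1, without the filter, under TPM, by voom and with the 2 groups alone, and 0 to 1 on leaving out a mouse. The median was 0.46 under TPM, 0.45 by voom and 0.12 to 0.28 on leaving out a mouse. Under TPM the level of the members was −0.50 in ND 2, −0.30 in ND 3 and 0.29 in control 1.

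TPM and voom divide by each library's own total, which removes the median-ratio scaling of the FPKM, and that construction moves all genes. Without the filter more genes are tested. The cause of the other changes was not tested. Among the members named, *Trim25*, *Ifit2*, *Oasl2*, *Oas1a*, *Ifit3* and *Oas2* kept their call in control against ND in 19 of 19 alternatives on single genes. These leave out the log2 difference beyond 1, under which 0 members were called. Signs turned in control against ND for *Ddx58* without control 1 (−0.023, and 0.034 without control 3). They turned for *Stat2* without ND 3 (−0.03) and without control 3 (−0.053), and for *Oasl1* without control 1 (−0.086, and 0.090 without control 2). Under TPM they turned for *Bst2* (0.016), *Irf1* (0.106) and *Irf9* (0.033), and by voom for *Irf1* (0.063). Of the markers, *Apob* turned under TPM (0.059) and by voom (0.016), as did *Apoa1*, *Clec4f* and *Kdr*.

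The replicate block gave 12 members higher and 0 lower in control against ND, with *Dhx58*, *Gbp2* and *Ifit3b* gained. It gave 10 and 0 in LA against ND, 3 and 1 in HYA against ND and 0 in the other comparisons. Of the further interferon-stimulated genes it called 4 lower in HYA against control. The share of all tested genes called with the block is not given here, so these counts cannot be set against it. Same-numbered mice correlated from −0.40 to 0.29 in their deviations from group means, and differently numbered mice of different groups from −0.375 to 0.393. Whether same-numbered mice shared a batch was not tested. *Ifit3b*, *Oas1a* and *Oas2* rest on few fragments, at 20 to 98, 27 to 144 and 35 to 163 a mouse. The effect of depth on them was not tested.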
